A study of Homo sapiens with 16 samples.

Results

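The sterol pathway set holds 27 genes for the synthesis, control and transport of cholesterol, of 58735 genes in the count table. They were chosen by name from textbook pathway roles, but with earlier results of these data known. The shares of these genes called below are therefore descriptive and not an independent test. The symbols were read from GENCODE release 29. The set has 20 synthesis enzymes, 4 control genes (SREBF2, SCAP, INSIG1 and INSIG2) and 3 genes of cholesterol transport (STARD4, ABCA1 and ABCG1). All 27 genes were found in the table and 26 had enough counts to be tested. ABCG1, the transporter that passes cholesterol to high-density lipoprotein, had 4 counts in all libraries together and was not tested.

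RNA was sequenced from HUH6 cells, an established human hepatoblastoma line, in 4 groups of 4 libraries. The groups were DMSO solvent in normoxia, 100 µM SLC-0111 in normoxia, DMSO in hypoxia and 100 µM SLC-0111 in hypoxia, all for 48 h, where hypoxia was an oxygen partial pressure of 1%. SLC-0111 (U-104) blocks the carbonic anhydrases IX and XII, per the labels, which are cell-surface enzymes that hydrate carbon dioxide, and the comparisons ask what it changes at each oxygen level. The 4 libraries of a group are called technical replicates by the submitters, so the p-values speak to the spread among technical libraries, not among separate cultures.

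Cells build cholesterol from acetyl-CoA through mevalonate, farnesyl diphosphate, squalene and lanosterol, and the late steps of this route use molecular oxygen. The transcription factor SREBP-2, the product of SREBF2, turns the enzyme genes on when sterols in the endoplasmic reticulum are low. SCAP escorts SREBP-2 out of the endoplasmic reticulum, and INSIG1 and INSIG2 hold the pair back when sterols are plentiful. Liver cells are a main site of this synthesis, and ABCA1 loads their surplus cholesterol onto apolipoprotein A-I.

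The promoters of 6 genes are shown: 3 enzyme genes that fell in hypoxia, both INSIG genes and ABCA1. Each is the RefSeq window (GRCh38.p14) from 250 bases before to 50 bases after a start taken from RefSeq, written 5′ to 3′ on the strand of the gene. That start can differ from the GENCODE start given below, and the MVK window lies inside the GENCODE gene. The windows are MVK (chr12:109573544-109573843, plus strand), NSDHL (chrX:152830813-152831112, plus strand), MSMO1 (chr4:165327419-165327718, plus strand), INSIG1 (chr7:155297628-155297927, plus strand), INSIG2 (chr2:118088221-118088520, plus strand) and ABCA1 (chr9:104928106-104928405, minus strand). Capitals mark matches, on either strand, to CCAAT (the box bound by NF-Y), to CACNCCAC (a common form of the sterol regulatory element) and to ACGTG (the core of the hypoxia response element).
MVK: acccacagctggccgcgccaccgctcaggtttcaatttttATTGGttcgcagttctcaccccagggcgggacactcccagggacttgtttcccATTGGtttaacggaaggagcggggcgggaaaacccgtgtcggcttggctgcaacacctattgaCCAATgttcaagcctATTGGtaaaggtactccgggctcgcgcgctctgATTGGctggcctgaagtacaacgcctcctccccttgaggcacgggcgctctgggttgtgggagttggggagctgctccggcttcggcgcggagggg
NSDHL: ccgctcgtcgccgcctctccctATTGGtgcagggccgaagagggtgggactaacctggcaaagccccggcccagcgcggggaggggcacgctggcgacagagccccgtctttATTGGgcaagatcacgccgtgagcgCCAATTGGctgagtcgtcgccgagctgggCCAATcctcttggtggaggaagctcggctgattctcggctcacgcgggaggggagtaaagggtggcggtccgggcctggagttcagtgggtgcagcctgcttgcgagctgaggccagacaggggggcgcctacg
MSMO1: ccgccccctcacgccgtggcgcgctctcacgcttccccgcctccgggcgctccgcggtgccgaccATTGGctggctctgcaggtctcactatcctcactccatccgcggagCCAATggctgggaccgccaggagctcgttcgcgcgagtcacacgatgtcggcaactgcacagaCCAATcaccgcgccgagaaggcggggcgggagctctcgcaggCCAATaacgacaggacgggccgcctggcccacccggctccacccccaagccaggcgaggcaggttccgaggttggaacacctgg
INSIG1: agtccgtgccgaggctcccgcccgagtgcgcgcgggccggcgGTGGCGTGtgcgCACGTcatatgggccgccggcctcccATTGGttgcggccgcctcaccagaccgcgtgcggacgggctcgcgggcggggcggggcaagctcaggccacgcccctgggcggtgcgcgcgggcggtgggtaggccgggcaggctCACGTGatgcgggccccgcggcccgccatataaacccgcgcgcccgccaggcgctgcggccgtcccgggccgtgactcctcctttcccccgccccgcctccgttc
INSIG2: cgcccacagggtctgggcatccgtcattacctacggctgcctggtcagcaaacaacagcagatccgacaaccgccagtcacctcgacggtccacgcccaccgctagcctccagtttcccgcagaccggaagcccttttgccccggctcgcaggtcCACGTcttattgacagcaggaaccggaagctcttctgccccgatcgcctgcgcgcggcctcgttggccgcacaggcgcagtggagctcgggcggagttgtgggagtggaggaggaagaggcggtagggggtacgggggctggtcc
ABCA1: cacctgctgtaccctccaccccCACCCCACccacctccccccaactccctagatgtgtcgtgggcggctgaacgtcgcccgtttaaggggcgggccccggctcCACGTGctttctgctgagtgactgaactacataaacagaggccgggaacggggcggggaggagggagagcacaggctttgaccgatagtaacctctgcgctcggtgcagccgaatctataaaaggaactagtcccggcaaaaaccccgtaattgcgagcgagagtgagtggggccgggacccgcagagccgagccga

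RefSeq promoter windows were found for 23 of the 27 genes and for 17 of the 20 enzymes. ACAT2, FDFT1, SQLE and ABCG1 are named only. CCAAT was found in at least 1 window of 14 of the 17 enzymes (82.4%), while 39.7% of all 27305 genes with a window, and 34.6% of all windows, held it. At least 3 matches stood in a window of 7 of the 17 enzymes (MVK, MVD, IDI1, FDPS, MSMO1, NSDHL and EBP), against 3.92% of all genes. MVK and NSDHL had 5 matches each and MSMO1 had 4, the highest counts among the enzymes. The 3 enzyme windows shown above are therefore not typical of the 17. In NSDHL a match on each strand overlapped. CACNCCAC was found in IDI1, SC5D, SREBF2, INSIG1 and ABCA1, and in 7.0% of all genes (5.9% of windows). ACGTG was found in 8 of the 23 genes, LSS, SC5D, DHCR7, SCAP, INSIG1, INSIG2, STARD4 and ABCA1, and in 24.9% of all genes (21.4% of windows). It can overlap its own reverse complement in CACGTG, which then counts as a match on each strand, as in INSIG1 and ABCA1. These matches describe the letters of the windows and are not measured binding sites.

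The smallest library, hypoxia DMSO replicate 3, held 3.30 M counts, the next 18.28 M and the largest 49.25 M, where M stands for 1000000. A count of 0 allows up to 3 counts, which is 0.0609 to 0.91 CPM over these depths and covers counting error only. One library of normoxia SLC-0111 and one of hypoxia DMSO carry no usable replicate number and are called unnumbered. Normoxia SLC-0111 replicate 4 had the lowest share of protein-coding counts (80.6%, next lowest 86.8%) and the highest mitochondrial share (15.3%). CA9, the gene of carbonic anhydrase IX, stood at 0 to 0.160 CPM in the normoxia libraries. It stood at 45.1 to 61.9 CPM in hypoxia DMSO and at 22.9 to 30.0 CPM in hypoxia SLC-0111. Of 8 hepatoblastoma and hepatocyte markers 7 were tested, AFP stood at 706 to 711 CPM in normoxia DMSO, and DLK1 had 8 counts in all. Of 3 leukocyte markers 0 had enough counts to be tested, and their sum reached at most 0.298 CPM.

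In all lists of values below, libraries come in the order replicates 1 to 4 for normoxia DMSO and hypoxia SLC-0111, replicates 1, 3, 4 and unnumbered for normoxia SLC-0111, and replicates 1, 2, 3 and unnumbered for hypoxia DMSO. Levels are given as counts per 1000000 (CPM) after TMM scaling, and group levels as mean ± SD over the 4 libraries. Changes are log2 fold changes ± SE from edgeR's quasi-likelihood test, fitted over 18385 genes and all 16 libraries, and a gene was called lower or higher at an adjusted p under 0.05. In normoxia DMSO, the level per kilobase of exon was highest for SQLE (114 CPM per kb), MSMO1 (96.7), DHCR7 (84.9) and EBP (68.6). It was lowest for GGPS1 (2.16 CPM per kb), INSIG2 (2.61) and CYP51A1 (5.61) among the tested genes. In hypoxia DMSO the level of INSIG2 was 20.8 CPM per kb beside 15.4 for INSIG1 and 20.2 for HMGCS1, which stood at 19.8 and 30.9 in normoxia DMSO.

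**Figure D1:**
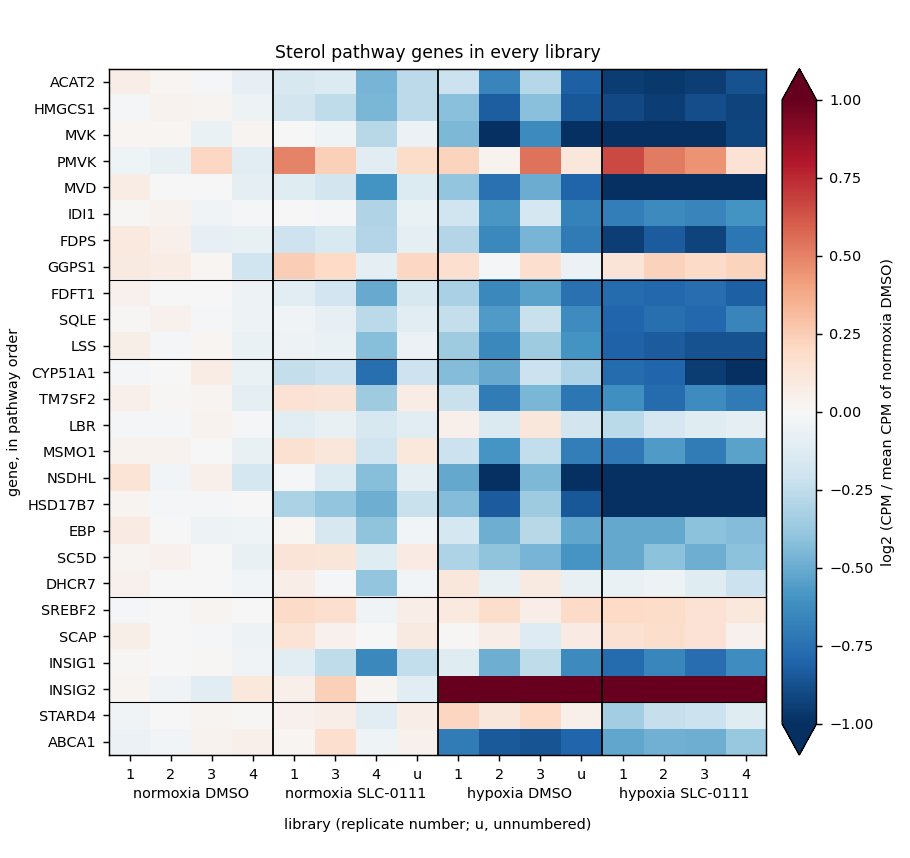
The colour gives log2 of CPM in each library over the mean CPM in normoxia DMSO, for the 26 tested genes in pathway order (rows) and the 16 libraries by group (columns; u marks an unnumbered library), and values past the ends of the scale take the end colour. Most enzymes are blue in all 8 hypoxia libraries, INSIG2 is red in all 8, and normoxia SLC-0111 replicate 4 is bluer than the other libraries of its group.

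In hypoxia with DMSO most of the enzymes were lower than in normoxia and INSIG2 was higher. Of the 26 tested genes, 18 (69.2%) were called lower, against 24.8% of all genes, and 3 (11.5%) higher, against 25.0%. The 18 were 16 of the 20 enzymes, INSIG1 and ABCA1, and the 3 were INSIG2, STARD4 and SREBF2. Without normoxia DMSO replicate 1, INSIG2 was the 1 gene called higher. The median log2 fold change was −0.42 over the 26 genes and −0.46 over the enzymes, and −0.00 over all genes. PMVK, GGPS1, LBR, DHCR7 and SCAP did not pass the test, with log2 fold changes of −0.05 to 0.16.

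With SLC-0111 present, hypoxia against normoxia gave 19 genes called lower (73.1%, against 24.3% of all genes) and 1 called higher, INSIG2 (3.8%, against 23.9%). The 19 were again 16 enzymes, with INSIG1, ABCA1 and STARD4. The median log2 fold change was −0.55 over the 26 genes and −0.63 over the enzymes, and −0.03 over all genes. Without normoxia SLC-0111 replicate 4 the counts were also 19 (23.3% of all genes) and 1 (23.1%), and the median over the enzymes was −0.68. All 20 genes were called in each of the 18 alternative settings that covered this comparison. PMVK was also called higher without normoxia SLC-0111 replicate 1 (0.33) or hypoxia SLC-0111 replicate 4 (0.34). DHCR7 was also called lower with a covariate for the protein-coding share (−0.20).

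With SLC-0111 in hypoxia, part of the same route was lower than with DMSO. Of the 26 genes, 11 (42.3%) were called lower, against 7.11% of all genes, and 1 (3.8%), ABCA1, higher, against 9.14%. The 11 were ACAT2, HMGCS1, MVD, FDPS, SQLE, LSS, CYP51A1, HSD17B7, INSIG1, INSIG2 and STARD4. The median log2 fold change was −0.23 over the 26 genes, with the same value over the enzymes, and −0.01 over all genes. Without hypoxia DMSO replicate 1 both medians were −0.12, and 9 genes were called lower (share of all genes not given here). Without hypoxia SLC-0111 replicate 4, PMVK was also called higher (0.38).

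With SLC-0111 in normoxia the changes were small. Of the 26 genes, 5 (19.2%) were called lower, against 11.2% of all genes: HMGCS1, FDFT1, CYP51A1, HSD17B7 and INSIG1. By edgeR's quasi-likelihood test 0 were called higher, against 12.4% of all genes, and DESeq2 and an unadjusted p under 0.05 also gave 0. The median log2 fold change was −0.10 over the 26 genes and 0.02 over all genes. Without normoxia SLC-0111 replicate 4, 3 genes were called lower (8.66% of all genes) and 1, SREBF2, higher (10.9%), and the median was −0.04. Leaving out normoxia DMSO replicate 1, 2 or 3 also gave 3 lower. With a covariate for the protein-coding share, 1 was lower (HSD17B7; 7.67% of all genes) and 2 were higher (PMVK and SREBF2; 11.1%), and the median was 0.01. More genes were lower with library size alone as the scaling (9), in a fit of only the groups compared (9), with no filter on low counts (8), with a minimum of 1 CPM in 4 libraries (8) and with numbered libraries only (8). The share of all genes called in these settings, or without a DMSO library, is not given here. The counts are thus not set against all genes. With library size alone the median over all genes was −0.05.

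**Figure D2:**
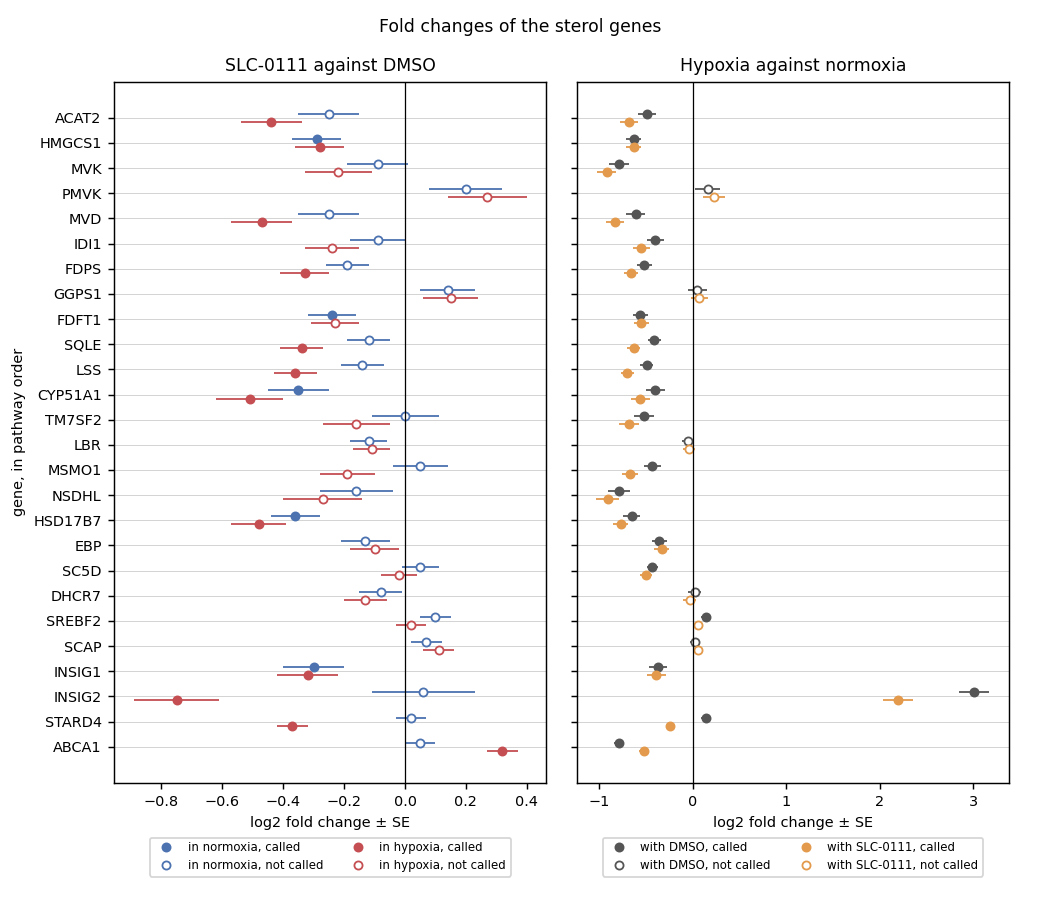
Log2 fold changes with SE (x axis) of the 26 tested genes in pathway order (y axis), for SLC-0111 against DMSO at each oxygen level (left) and for hypoxia against normoxia with each treatment (right); filled points were called at an adjusted p under 0.05. In the right panel 16 enzymes lie left of 0 as filled points with both treatments, and INSIG2 stands at 3.01 and 2.20.

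The first steps lead from acetyl-CoA to mevalonate and on to the prenyl diphosphates, and 6 of these 8 genes fell in hypoxia with either treatment. Of all genes, 24.8% were called lower in hypoxia with DMSO and 24.3% with SLC-0111. ACAT2 (ENSG00000120437, chromosome 6, 159760328 to 159779055, GRCh38) encodes the cytosolic thiolase that joins acetyl-CoA units. It stood at 113, 109, 107 and 102 CPM in normoxia DMSO replicates 1 to 4, and at 96.4, 97.8, 78.0 and 89.9 CPM in normoxia with SLC-0111 (replicates 1, 3 and 4, then the unnumbered one). Its hypoxia levels were 92.9, 68.1, 88.4 and 61.2 CPM with DMSO (replicates 1, 2, 3 and unnumbered) and at 55.8, 55.1, 56.1 and 58.8 CPM with SLC-0111 (replicates 1 to 4). Each hypoxia group lay below its normoxia group, and the hypoxia SLC-0111 libraries lay below all others. ACAT2 fell with SLC-0111 in hypoxia by 0.44 ± 0.10 on the log2 scale (adjusted p = 0.00612, edgeR's quasi-likelihood test). The same test gave −0.25 ± 0.10 in normoxia (adjusted p = 0.0717), which passed the threshold in 7 of 18 alternative settings, among them DESeq2 (0.035). ACAT2 overlaps TCP1 and SOD2 on the opposite strand, and the strand setting of the counting is not given in the sources used here.

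HMGCS1 (ENSG00000112972, chromosome 5, 43289395 to 43313512) encodes the synthase that makes HMG-CoA. With DMSO it stood at 144, 149, 148 and 140.1 CPM in normoxia (replicates 1 to 4) and at 109, 81.9, 109 and 80.8 CPM in hypoxia (replicates 1, 2, 3 and unnumbered). With SLC-0111 it stood at 128, 122, 106 and 121 CPM in normoxia (replicates 1, 3, 4 and unnumbered) and at 77.6, 75.6, 78.5 and 76.6 CPM in hypoxia (replicates 1 to 4). No pair of the compared groups overlapped, and hypoxia DMSO replicates 1 and 3 lay closer to the normoxia libraries than the other libraries of that group. HMGCS1 fell in hypoxia by 0.63 ± 0.08 with DMSO (adjusted p = 8.18e-07) and by 0.63 ± 0.08 with SLC-0111 (adjusted p = 9.21e-07). It fell with SLC-0111 by 0.29 ± 0.08 in normoxia (adjusted p = 0.00828) and by 0.28 ± 0.08 in hypoxia (adjusted p = 0.0174). The call in hypoxia was lost without hypoxia DMSO replicate 1 (adjusted p = 0.111), without hypoxia DMSO replicate 3 (0.0596), without hypoxia SLC-0111 replicate 2 (0.0599) and in a fit of only the groups compared (0.0592). The call in normoxia was lost with a covariate for the protein-coding share (adjusted p = 0.113). The effects of SLC-0111 at the oxygen levels differed by 0.01 ± 0.11 (adjusted p = 0.991).

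MVK (ENSG00000110921, chromosome 12, 109573255 to 109598117) encodes mevalonate kinase and had one of the largest falls in hypoxia. In normoxia it stood at 105, 105, 99.2 and 106 CPM with DMSO and at 104, 101, 85.6 and 99.7 CPM with SLC-0111. The hypoxia values were 76.1, 51.4, 66.7 and 48.9 CPM with DMSO and at 50.2, 51.8, 49.6 and 54.8 CPM with SLC-0111. The oxygen groups did not overlap, while the treatment groups did at each oxygen level. It fell in hypoxia by 0.79 ± 0.11 with DMSO (adjusted p = 5.49e-06) and by 0.92 ± 0.10 with SLC-0111 (adjusted p = 7.62e-07). MVK overlaps MMAB on the opposite strand.

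MVD (ENSG00000167508, chromosome 16, 88651935 to 88663161) encodes the decarboxylase that makes isopentenyl diphosphate. With DMSO it stood at 279.8, 265, 266 and 249.8 CPM in normoxia and at 202, 158, 188 and 152 CPM in hypoxia. With SLC-0111 it stood at 244, 234, 175 and 241 CPM in normoxia and at 133, 127, 124 and 118 CPM in hypoxia. The 4 groups formed steps from normoxia DMSO down to hypoxia SLC-0111, broken only by normoxia SLC-0111 replicate 4, which lay among the hypoxia DMSO libraries. MVD fell with SLC-0111 in hypoxia by 0.47 ± 0.10 (adjusted p = 0.00245), and the value in normoxia was −0.25 ± 0.10 (adjusted p = 0.0689), which also passed in 7 of 18 settings, among them DESeq2 (0.0316). It fell in hypoxia by 0.61 ± 0.10 with DMSO (adjusted p = 4.13e-05) and by 0.83 ± 0.10 with SLC-0111 (adjusted p = 1.18e-06).

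IDI1, the isomerase of isopentenyl diphosphate, and FDPS, which makes farnesyl diphosphate, fell in hypoxia with DMSO by 0.40 ± 0.09 and 0.52 ± 0.08 on the log2 scale. With SLC-0111 the falls in hypoxia were 0.55 ± 0.09 and 0.66 ± 0.07. FDPS also fell with SLC-0111 in hypoxia, from 58.4 ± 7.69 to 46.3 ± 3.28 CPM, by 0.33 ± 0.08 on the log2 scale (adjusted p = 0.00454). IDI1 was not called there. Its values were −0.32 to −0.14 over the alternative settings, and some passed, among them DESeq2 (adjusted p = 0.0403). With SLC-0111 in normoxia FDPS was not called, with −0.26 to −0.14 over the settings. Some of these passed too, such as edgeR with numbered libraries only (0.0366). FDPS has pseudogene copies that may share its reads. PMVK, the kinase after MVK, and GGPS1, which makes geranylgeranyl diphosphate for protein prenylation, did not pass the test in any comparison. PMVK stood at 9.43 ± 1.00 and 11.0 ± 1.86 CPM in normoxia with DMSO and SLC-0111, and at 11.1 ± 1.78 and 12.9 ± 1.89 CPM in hypoxia. GGPS1 stood between 7.15 and 9.74 CPM in all 16 libraries, and shares ground with TBCE on the same strand and ARID4B on the other.

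FDFT1, SQLE and LSS take farnesyl diphosphate through squalene to lanosterol, and all 3 fell in hypoxia with either treatment (24.8% and 24.3% of all genes with DMSO and SLC-0111). FDFT1 (ENSG00000079459, chromosome 8, 11795573 to 11839309), the squalene synthase, stood at 141, 137, 136 and 132 CPM in normoxia DMSO and at 127, 119.6, 96.1 and 122 CPM in normoxia SLC-0111. In hypoxia it stood at 109, 87.5, 94.4 and 81.3 CPM with DMSO and at 79.9, 79.1, 80.5 and 77.6 CPM with SLC-0111. The treatment groups did not overlap at either oxygen level, and replicate 4 was the lowest of normoxia SLC-0111. FDFT1 fell with SLC-0111 in normoxia by 0.24 ± 0.08 (adjusted p = 0.0275), and the value in hypoxia was −0.23 ± 0.08 (adjusted p = 0.0508), which passed the threshold in 11 of 18 alternative settings, among them DESeq2 (0.0406). The call in normoxia was lost without normoxia SLC-0111 replicate 4 (adjusted p = 0.103), without normoxia DMSO replicates 1, 2 or 3 in turn (0.0765, 0.0567 and 0.054) and with a covariate for the protein-coding share (0.312). In hypoxia it fell by 0.56 ± 0.08 with DMSO (adjusted p = 3.37e-06).

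LSS (ENSG00000160285, chromosome 21, 46188141 to 46228824), the cyclase that forms lanosterol, stood with DMSO at 288, 273, 280.1 and 263 CPM in normoxia and at 216, 177, 216 and 182 CPM in hypoxia. With SLC-0111 it stood at 267, 264, 206 and 265 CPM in normoxia and at 158, 155, 151 and 151 CPM in hypoxia. The hypoxia SLC-0111 libraries lay below all others, and normoxia SLC-0111 replicate 4 lay apart below its group. LSS fell in hypoxia by 0.49 ± 0.07 with DMSO and by 0.70 ± 0.07 with SLC-0111 (adjusted p = 9.06e-06 and 5.42e-08). With SLC-0111 in hypoxia it fell by 0.36 ± 0.07 (adjusted p = 0.00176). SQLE, the oxygen-dependent epoxidase before it, fell with SLC-0111 in hypoxia from 373 ± 54.9 to 293 ± 12.9 CPM, by 0.34 ± 0.07 on the log2 scale (adjusted p = 0.00237). In hypoxia SQLE fell by 0.41 ± 0.07 with DMSO and by 0.63 ± 0.07 with SLC-0111.

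Of the 9 genes that turn lanosterol into cholesterol, 7 fell in hypoxia with either treatment (24.8% and 24.3% of all genes with DMSO and SLC-0111). The other 2, LBR and DHCR7, did not pass the test. CYP51A1 (ENSG00000001630, chromosome 7, 92112151 to 92134803), the cytochrome P450 that removes the first methyl group of lanosterol, stood at 19.8, 20.2, 21.2 and 19.2 CPM in normoxia DMSO and at 17.0, 17.3, 11.9 and 17.4 CPM in normoxia SLC-0111. Under hypoxia its levels were 14.9, 14.2, 17.3 and 16.2 CPM with DMSO and at 11.8, 11.6, 10.4 and 9.37 CPM with SLC-0111. At each oxygen level all SLC-0111 libraries lay below all DMSO libraries. CYP51A1 fell with SLC-0111 by 0.35 ± 0.10 in normoxia (adjusted p = 0.0107) and by 0.51 ± 0.11 in hypoxia (adjusted p = 0.00189). Without normoxia SLC-0111 replicate 4 the value in normoxia was −0.22 (adjusted p = 0.0472), and with a covariate for the protein-coding share it was −0.15 (adjusted p = 0.211). Without both that library and hypoxia DMSO replicate 3 its adjusted p was 0.0579. CYP51A1 overlaps the genes AC000120.2 and AC000120.3 on the same strand.

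MSMO1, NSDHL and HSD17B7 act in turn to remove the next methyl groups. HSD17B7 (ENSG00000132196, chromosome 1, 162790702 to 162812817) was called lower in each of the 4 comparisons between groups, also under each of the 18 alternative settings run for each. It stood at 39.6, 38.5, 38.2 and 38.9 CPM in normoxia DMSO and at 31.1, 29.5, 27.6 and 33.2 CPM in normoxia SLC-0111. In hypoxia it stood at 28.7, 21.8, 30.4 and 21.6 CPM with DMSO and at 17.4, 17.9, 16.3 and 19.1 CPM with SLC-0111. The compared groups did not overlap. HSD17B7 fell with SLC-0111 by 0.36 ± 0.08 in normoxia (adjusted p = 0.00194) and by 0.48 ± 0.09 in hypoxia (adjusted p = 0.000483). In hypoxia it fell by 0.65 ± 0.09 with DMSO and by 0.77 ± 0.08 with SLC-0111 (adjusted p = 9.31e-07 and 6.35e-08). It has pseudogene copies that may share its reads.

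NSDHL (ENSG00000147383, chromosome X, 152830967 to 152869729) had a fall in hypoxia as large as that of MVK. With DMSO it stood at 74.0, 66.2, 69.7 and 59.8 CPM in normoxia and at 47.2, 33.1, 49.4 and 31.4 CPM in hypoxia. With SLC-0111 it stood at 66.8, 61.2, 50.2 and 63.3 CPM in normoxia and at 33.4, 31.5, 31.7 and 32.1 CPM in hypoxia. The oxygen groups did not overlap, and the hypoxia SLC-0111 libraries lay within the lower part of the hypoxia DMSO range. It fell in hypoxia by 0.79 ± 0.12 with DMSO (adjusted p = 4.47e-05) and by 0.91 ± 0.12 with SLC-0111 (adjusted p = 8.62e-06). MSMO1 fell in hypoxia by 0.43 ± 0.09 and 0.67 ± 0.09 with DMSO and SLC-0111.

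TM7SF2, a sterol reductase, fell in hypoxia by 0.52 ± 0.11 with DMSO and 0.68 ± 0.11 with SLC-0111, and it overlaps VPS51 on the same strand. EBP, the sterol isomerase, fell by 0.36 ± 0.08 and 0.33 ± 0.08, and SC5D, the sterol desaturase, by 0.43 ± 0.06 and 0.50 ± 0.06. None of TM7SF2, LBR, MSMO1, NSDHL, EBP, SC5D and DHCR7 passed the test for SLC-0111 at either oxygen level, where their log2 fold changes ran from −0.27 to 0.05. Some alternative edgeR settings gained a call. Examples are MSMO1, lower in hypoxia with numbered libraries only (adjusted p = 0.049), and LBR, lower in normoxia with only the groups compared (0.0129). LBR, which has the same reductase activity as TM7SF2 and is also a protein of the inner nuclear membrane, stood at 157 ± 2.52 CPM in normoxia DMSO and at 153 ± 15.4 CPM in hypoxia DMSO. DHCR7, the last reductase of one branch, stood at 353 ± 7.24 and 358 ± 25.8 CPM in these groups, a log2 difference of 0.02 ± 0.07 (adjusted p = 0.882). With SLC-0111, edgeR with a covariate for the protein-coding share called DHCR7 lower in hypoxia than in normoxia (−0.20, adjusted p = 0.0013).

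**Figure D3:**
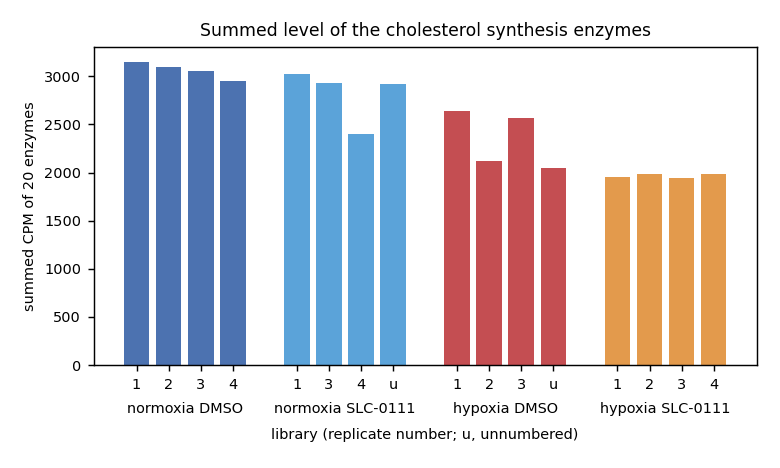
Summed CPM of the 20 enzymes (y axis, from 0) in each library, grouped by treatment and oxygen (u marks an unnumbered library), with no error bar because each bar is 1 library. Normoxia SLC-0111 replicate 4 (2399) stands below its group, hypoxia DMSO splits between 2048 and 2636, and the hypoxia SLC-0111 libraries lie between 1947 and 1983.

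The summed level of the 20 enzymes described each library by 1 value. It was 3149, 3098, 3057 and 2951 CPM in normoxia DMSO and 3025, 2926, 2399 and 2921 CPM in normoxia SLC-0111. In hypoxia it was 2636, 2117, 2566 and 2048 CPM with DMSO and 1955, 1983, 1947 and 1982 CPM with SLC-0111. The hypoxia SLC-0111 libraries held 63.6% to 64.7% of the normoxia DMSO mean, and the hypoxia DMSO libraries 66.8% to 86.0%. Normoxia SLC-0111 replicate 4 was at 78.3%, while the other libraries of its group were at 95.3% to 98.7%, and it was the lowest of its group for 20 of 20 enzymes. Hypoxia DMSO replicates 1 and 3 were the highest of their group for 11 and 9 of the 20 enzymes. NDRG1, a hypoxia-induced gene, stood at 1496 and 1792 CPM in those libraries and at 2452 and 2305 CPM in replicate 2 and the unnumbered library. ANKRD37, another such gene, stood at 7.47 and 6.55 CPM against 12.7 and 11.2 CPM in the same order. CA9 stood at 45.1 and 59.0 CPM against 61.9 and 59.0 CPM, so replicate 3 was level with the unnumbered library. The part of these library differences in the results was not tested beyond the values given without single libraries.

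The 4 control genes did not move together. SREBF2 (ENSG00000198911, chromosome 22, 41833079 to 41907308) stood at 276, 278, 285 and 278 CPM in normoxia DMSO and at 299.6, 316, 293 and 319.6 CPM in hypoxia DMSO. With SLC-0111 it stood at 319, 313, 272 and 293 CPM in normoxia and at 321, 318, 309 and 301 CPM in hypoxia. Of the groups compared, those with DMSO did not overlap and the others did. SREBF2 rose in hypoxia with DMSO by 0.14 ± 0.05 (adjusted p = 0.0218). That call was lost without normoxia DMSO replicate 1 (adjusted p = 0.064), without hypoxia DMSO replicate 2 (0.066), without the unnumbered hypoxia DMSO library (0.0573), with numbered libraries only (0.0688), with library size alone as the scaling (0.12) and with no filter on low counts (0.205). With SLC-0111 the change in hypoxia was 0.06 ± 0.05 (adjusted p = 0.316). SLC-0111 gave 0.10 ± 0.05 in normoxia (adjusted p = 0.153) and 0.02 ± 0.05 in hypoxia (adjusted p = 0.837), a difference of −0.08 ± 0.07 (adjusted p = 0.556). Without normoxia SLC-0111 replicate 4 the change in normoxia was 0.14 (adjusted p = 0.0255). SCAP did not pass the test in any comparison and stood between 138 and 171 CPM in all libraries.

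INSIG1 (ENSG00000186480, chromosome 7, 155297776 to 155310235), itself a target of SREBP-2, moved with the enzymes. It stood at 72.9, 72.5, 72.7 and 70.5 CPM in normoxia DMSO and at 67.2, 60.6, 46.2 and 60.7 CPM in normoxia SLC-0111. The hypoxia values were 66.3, 51.4, 60.5 and 46.4 CPM with DMSO and at 42.4, 45.9, 42.5 and 47.0 CPM with SLC-0111. In hypoxia the treatment groups overlapped, as did the oxygen groups with SLC-0111, and normoxia SLC-0111 replicate 4 lay at the level of the hypoxia SLC-0111 libraries. INSIG1 fell in hypoxia by 0.37 ± 0.10 with DMSO (adjusted p = 0.00537) and by 0.39 ± 0.10 with SLC-0111 (adjusted p = 0.00344). The fall with SLC-0111 was 0.30 ± 0.10 in normoxia (adjusted p = 0.0338) and 0.32 ± 0.10 in hypoxia (adjusted p = 0.043), and these differed by −0.02 ± 0.14 (adjusted p = 0.971). The call in normoxia was lost without any 1 of normoxia DMSO replicates 1 to 4 (adjusted p = 0.0549 to 0.0758), without normoxia SLC-0111 replicate 3 (0.0525) or 4 (0.0947) and with a covariate for the protein-coding share (0.284). The call in hypoxia was lost without hypoxia DMSO replicate 1 (adjusted p = 0.225) or 3 (0.0952) and without any 1 of the hypoxia SLC-0111 replicates (0.0519 to 0.114).

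INSIG2 (ENSG00000125629, chromosome 2, 118088452 to 118110997) had the largest change of the set. It stood at 10.5, 10.1, 9.59 and 11.1 CPM in normoxia DMSO and at 10.7, 12.2, 10.5 and 9.57 CPM in normoxia SLC-0111. In hypoxia it stood at 57.2, 98.0, 71.2 and 102 CPM with DMSO and at 46.0, 53.5, 47.7 and 49.9 CPM with SLC-0111. All hypoxia libraries lay above all normoxia libraries, and all hypoxia SLC-0111 libraries lay below all hypoxia DMSO libraries. INSIG2 rose in hypoxia by 3.01 ± 0.16 with DMSO, which is 8.06-fold (adjusted p = 4.47e-10), and by 2.20 ± 0.16 with SLC-0111, which is 4.58-fold (adjusted p = 2.08e-08). In hypoxia INSIG2 fell with SLC-0111 by 0.75 ± 0.14 (adjusted p = 0.00177), and in normoxia the value was 0.06 ± 0.17 (adjusted p = 0.848). The rise and this fall were called in all 18 alternative settings of each comparison.

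STARD4 (ENSG00000164211, chromosome 5, 111496033 to 111512590) encodes a soluble carrier that moves cholesterol between membranes. It stood at 85.9, 87.4, 89.3 and 88.7 CPM in normoxia DMSO and at 90.6, 91.8, 81.6 and 92.2 CPM in normoxia SLC-0111. Under hypoxia its levels were 102, 94.8, 101 and 91.1 CPM with DMSO and at 69.2, 74.8, 75.6 and 80.6 CPM with SLC-0111. The hypoxia DMSO libraries lay above and the hypoxia SLC-0111 libraries below the normoxia DMSO libraries. STARD4 fell with SLC-0111 in hypoxia by 0.37 ± 0.05 (adjusted p = 4.26e-05), and the value in normoxia was 0.02 ± 0.05 (adjusted p = 0.846). In hypoxia it rose by 0.14 ± 0.05 with DMSO (adjusted p = 0.0323) and fell by 0.24 ± 0.05 with SLC-0111 (adjusted p = 0.000559). The rise was lost without normoxia DMSO replicate 1 (adjusted p = 0.091), 2 (0.0597) or 4 (0.0519), without hypoxia DMSO replicate 1 (0.0874) or 3 (0.0538), with library size alone as the scaling (0.132) and with no filter on low counts (0.224).

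ABCA1 (ENSG00000165029, chromosome 9, 104781002 to 104928237), the cholesterol exporter, fell in hypoxia and rose with SLC-0111 in hypoxia. It stood at 211, 216, 226 and 228 CPM in normoxia DMSO and at 223, 248, 214 and 227 CPM in normoxia SLC-0111. In hypoxia it stood at 136, 123, 121 and 127 CPM with DMSO and at 154, 158, 157 and 169 CPM with SLC-0111. The normoxia groups overlapped, while the hypoxia DMSO libraries lay below all others. ABCA1 fell in hypoxia by 0.79 ± 0.05 with DMSO (adjusted p = 1.14e-11) and by 0.52 ± 0.05 with SLC-0111 (adjusted p = 1.63e-08). With SLC-0111 it rose by 0.32 ± 0.05 in hypoxia (adjusted p = 0.000125), and the value in normoxia was 0.05 ± 0.05 (adjusted p = 0.519).

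**Figure D4:**
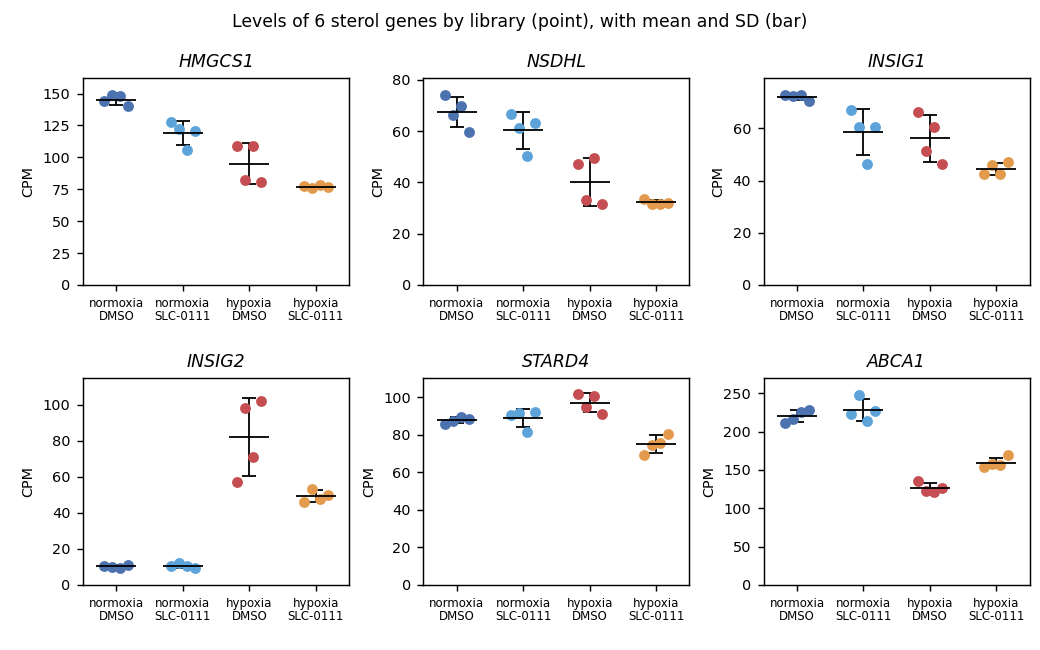
CPM (y axis, from 0) of 6 sterol genes in the 4 libraries of each group (points), with the mean and SD (horizontal line and bar). INSIG2 stands near 10 CPM in normoxia and at 46.0 to 102 CPM in hypoxia, and ABCA1 lies lowest in hypoxia DMSO (121 to 136 CPM).

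The difference of the SLC-0111 effects, hypoxia minus normoxia, was called for 3 of the 26 genes: INSIG2 and STARD4 lower (3.13% of all genes) and ABCA1 higher (2.87% of all genes). For STARD4 it was −0.39 ± 0.08 (adjusted p = 0.00347), and the call was kept in all 25 alternative settings. For INSIG2 it was −0.81 ± 0.22 (adjusted p = 0.0445), and the call was lost in 17 of 25 settings. Among these were leaving out any 1 of normoxia DMSO replicates 1 to 4, any 1 of the 4 normoxia SLC-0111 libraries, hypoxia DMSO replicate 2 or the unnumbered library, or hypoxia SLC-0111 replicates 1, 3 or 4 (adjusted p = 0.0537 to 0.0957). For ABCA1 it was 0.27 ± 0.07 (adjusted p = 0.0276), and the call was lost in 8 of 25 settings. Among these were leaving out normoxia DMSO replicates 3 or 4, the unnumbered normoxia SLC-0111 library, hypoxia DMSO replicate 2 or hypoxia SLC-0111 replicate 2 (adjusted p = 0.0509 to 0.0635). Of the 20 enzymes 0 were called in either direction by edgeR on all 16 libraries without a covariate, or by DESeq2. At an unadjusted p under 0.05 in edgeR, 2 had a lower value, and the median difference was −0.13. Without normoxia SLC-0111 replicate 4, INSIG2 was not called, LSS was called lower at −0.30 (adjusted p = 0.0292), 2 genes in all were lower (2.73% of all genes) and 1 higher (2.18%), and all 20 enzymes had a negative difference with a median of −0.18. With a covariate for the protein-coding share, edgeR called LSS (−0.30, adjusted p = 0.00794) and MVD (−0.33, adjusted p = 0.0107) lower. All 20 enzymes had a negative difference in that fit, with a median of −0.18. Without hypoxia DMSO replicate 1 the median was −0.00 and 10 of the 20 were negative. In simulated libraries this comparison recovered 46 of 100 changes of 0.5 on the log2 scale. The changed genes were drawn from all genes over 1 CPM, so that share does not measure the recovery for the sterol genes. The differences of the 20 enzymes ran from −0.24 to 0.07 in edgeR on all 16 libraries.

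**Figure D5:**
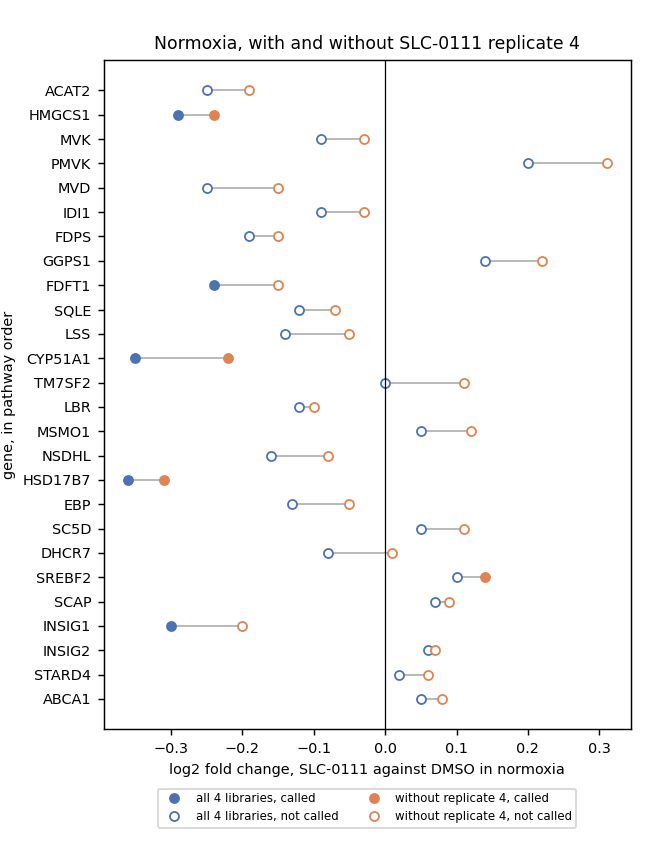
Log2 fold change of SLC-0111 against DMSO in normoxia (x axis) for the 26 tested genes in pathway order (y axis), with all 4 normoxia SLC-0111 libraries and without replicate 4; filled points were called. Each of the 26 values moves to the right without that library, and HMGCS1, CYP51A1 and HSD17B7 stay filled on the left.

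Leaving out normoxia SLC-0111 replicate 4, the library of its group with the largest total (40.09 M counts), moved the median of the enzymes in normoxia from −0.13 to −0.06. HSD17B7 stayed lower at −0.31 (adjusted p = 0.00879) and HMGCS1 at −0.24 (adjusted p = 0.0385). INSIG1 was at −0.20 (adjusted p = 0.0947) and no longer called. PMVK at 0.31 (adjusted p = 0.068) and GGPS1 at 0.22 (adjusted p = 0.0845) had the highest values among the enzymes and did not pass the test.

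Other genes of sterol handling were counted from a list of 40, of which 37 were tested. With SLC-0111 in normoxia, 6 were lower (11.2% of all genes) and 11 higher (12.4%), and in hypoxia 6 were lower (7.11%) and 10 higher (9.14%). In hypoxia against normoxia, 16 were lower (24.8% of all genes) and 8 higher (25.0%) with DMSO, and 16 were lower (24.3%) and 9 higher (23.9%) with SLC-0111. Of the difference of the SLC-0111 effects, 0 were called lower (3.13% of all genes) and 2 higher (2.87%).

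SOAT2, which esterifies cholesterol for storage and export, rose with SLC-0111 in normoxia from 18.4 ± 0.857 to 30.0 ± 3.55 CPM, by 0.71 ± 0.08 on the log2 scale (adjusted p = 3.49e-07). It also rose in hypoxia, by 0.41 ± 0.08 (adjusted p = 0.000673). SREBF1, the gene of the related factor SREBP-1, fell with SLC-0111 in normoxia from 92.5 ± 2.88 to 62.2 ± 8.42 CPM, by 0.58 ± 0.08. MBTPS2, a protease that releases the SREBP factors, and LRP1, a lipoprotein receptor, rose there by 0.47 ± 0.06 each. With SLC-0111 in hypoxia, ABCG8, a sterol transporter, rose by 0.63 ± 0.09 (from 7.77 ± 1.20 to 11.4 ± 0.532 CPM), and FAXDC2 rose by 0.51 ± 0.07.

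In hypoxia with DMSO, LPCAT3, which remodels membrane phospholipids, fell from 72.1 ± 3.64 to 36.5 ± 3.53 CPM, by 1.00 ± 0.06 on the log2 scale (adjusted p = 1.03e-12). SOAT1, the more widely expressed esterifying enzyme, fell by 0.71 ± 0.05 and LRP1 rose by 0.87 ± 0.06. With SLC-0111 the hypoxia effect was a rise of LRP1 by 0.60 ± 0.06, a fall of SOAT1 by 0.57 ± 0.05 and a fall of TMEM97, a membrane protein of cholesterol traffic, by 0.50 ± 0.07. The SLC-0111 effect differed between the oxygen levels for LPCAT3 by 0.51 ± 0.08 (adjusted p = 0.000483), from −0.41 in normoxia to 0.10 in hypoxia. For SREBF1 it differed by 0.46 ± 0.11 (adjusted p = 0.0137), from −0.58 to −0.11. LRP1, SREBF1, LPCAT3, FAXDC2, TMEM97 and ABCG8 overlap genes on the opposite strand, and MBTPS2 overlaps YY2 on its own strand.

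The hepatoblastoma and hepatocyte markers did not move one way in hypoxia with DMSO: ALB, AFP, TTR and APOB fell, HNF4A and APOA1 rose, and GPC3 did not pass the test. ALB stood at 76.8 ± 1.77 CPM in normoxia DMSO, 25.2 ± 2.93 CPM in hypoxia DMSO and 38.3 ± 2.12 CPM in hypoxia SLC-0111, and AFP at 708 ± 2.30, 434 ± 15.2 and 528 ± 11.1 CPM. HNF4A, a transcription factor of hepatocytes, stood at 340.4 ± 6.40 CPM in normoxia DMSO and 519.5 ± 44.3 CPM in hypoxia DMSO, and APOA1, the protein of high-density lipoprotein, at 1459 ± 40.2 and 1693 ± 124 CPM. In normoxia SLC-0111, AFP stood at 545 CPM in replicate 4 and at 737 to 746 CPM in the other libraries. The summed level of the 8 markers was 12697 to 13476 CPM in normoxia DMSO, 14443 to 15602 in normoxia SLC-0111, 11107 to 12108 in hypoxia DMSO and 13332 to 14274 in hypoxia SLC-0111. APOB made up most of this sum, with means of 8251, 9078, 6915 and 8156 CPM in these groups. Of 4 fibroblast markers, COL1A2 alone was tested, and the sum of the 4 was 3.30 to 5.20 CPM in normoxia DMSO, 2.95 to 4.04 in normoxia SLC-0111, 18.8 to 20.2 in hypoxia DMSO and 8.26 to 10.8 in hypoxia SLC-0111. COL3A1, DCN and LUM had 13, 3 and 6 counts in all libraries together. Of 3 endothelial markers PECAM1 made up most of the level, and the sum was 51.9 to 57.7, 56.2 to 63.3, 50.4 to 61.4 and 55.0 to 58.6 CPM in the 4 groups, with 68 counts of VWF in all. The part of these genes in the sterol results was not tested, and fewer cells of a type cannot be told apart from less RNA per cell in bulk libraries.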

How the data were processed

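Total RNA of 16 HUH6 libraries was sequenced, and whole-number counts per gene, not normalized, were deposited in 1 table. Per the submitters' processing notes, the tools included HISAT2, HISAT, HTSeq, MultiQC 1.10.1 and edgeR 3.4.0, with the GRCh38 build; the strand setting of the counting is not given in the sources used here. All 58735 gene IDs matched GENCODE release 29 once 1 was added to the deposited starts. Totals ran from 3.30 M to 49.25 M counts (M stands for 1000000), and the small library limits the precision of its group. Libraries were grouped by their titles, and 2 carry no usable replicate number.

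Counts were filtered by filterByExpr and scaled by TMM, and edgeR 4.0.16 (R 4.3.3) fitted 1 mean per group to all 16 libraries (12 residual degrees of freedom). The robust quasi-likelihood test was adjusted by Benjamini-Hochberg over 18385 genes, with a threshold of 0.05, and SE is the log2 fold change over the square root of F. DESeq2 1.42.0, other scalings and filters, left-out libraries, a replicate block and a protein-coding covariate were alternatives. On simulated data the comparison of SLC-0111 in hypoxia (18027 genes) recovered 69 of 100 changes of log2 0.5 and 95 of 100 of log2 1, with 7 other calls. Per-library values are given for up to 5 called genes a direction with the largest change in each comparison, and for HMGCS1, INSIG1, SREBF2 and ABCA1, and up to 4 other sterol genes are named per comparison. Some genes covered by that rule are not reported here. The members and lists were chosen with earlier results of these data known. No 2 libraries of a group agreed within sampling noise (chi-square per degree of freedom 2.27 to 71.53 over genes with at least 20 counts).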

Additional observations from a re-analysis of the deposited data

Results flagged for a closer look

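Within groups of 4 libraries, 1 library stood apart from the rest, by Dixon's criterion, in 11 of 140 groups examined over 35 genes, where chance gives about 1 in 20. Of these, 9 were normoxia SLC-0111 replicate 4. It was low for MVD (175 CPM, the others 234 to 244), LSS (206, the others 264 to 267), CYP51A1 (11.9, the others 17.0 to 17.4) and MSMO1 (243, the others 300.1 to 311). It was also low for GGPS1 (7.68, the others 9.42 to 9.74), TM7SF2 (92.2, the others 124 to 130.2), STARD4 (81.6, the others 90.6 to 92.2) and TMEM97 (161, the others 188 to 189). LRP1 was high in it (1230.3 CPM, the others 1126 to 1136). The remaining cases were MVK in normoxia DMSO replicate 3 (99.2 CPM, the others 105 to 106) and ABCG8 in normoxia DMSO replicate 4 (7.70 CPM, the others 6.86 to 6.93).

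The effect of SLC-0111 differed between hypoxia and normoxia, tested as the difference of the effects, for 5 sterol genes. It was more negative in hypoxia for INSIG2 (−0.81 on the log2 scale) and STARD4 (−0.39). The difference was positive for ABCA1 (0.27), SREBF1 (0.46) and LPCAT3 (0.51). The INSIG2 call was lost in 17 of 25 alternative settings, among them without normoxia SLC-0111 replicate 4, and the ABCA1 call in 8 of 25.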

How the results depend on the processing

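No called change of the 26 genes turned direction among 468 values in each of the 4 comparisons between groups and 650 in the difference of the SLC-0111 effects, while changes that were not called did turn, such as LSS with SLC-0111 in normoxia (−0.14, and 0.01 with the protein-coding covariate). Calls were lost for 17, 11, 14, 0 and 25 values and gained for 30, 31, 0, 5 and 3 (SLC-0111 in normoxia, SLC-0111 in hypoxia, hypoxia with DMSO, hypoxia with SLC-0111, difference of effects). Only called genes can lose a call, and these were 5, 12, 21, 20 and 3 genes in the same order. Each had 18 alternative settings, or 25 for the difference of effects. The genes called lower with SLC-0111 in normoxia (5) numbered 9 with library size alone, 8 with no filter, 8 with a minimum of 1 CPM in 4 libraries, 9 with only the groups compared, 8 with numbered libraries only, 1 with the protein-coding covariate, 3 to 5 when 1 library was left out and 2 without normoxia SLC-0111 replicate 4 and hypoxia DMSO replicate 3 together. Those called higher (0) numbered 2 with the covariate, 0 to 1 when 1 library was left out and 1 without both libraries. With SLC-0111 in hypoxia the higher calls (1) were 2 with no filter, 3 with the covariate and 1 to 2 when 1 library was left out, and the lower calls (11) ran from 9 to 15. In hypoxia with DMSO the higher calls (3) were 1 with library size alone, 1 with no filter and 1 to 3 when 1 library was left out. In hypoxia with SLC-0111 they (1) were 2 with no filter and 1 to 2 when 1 library was left out. In the difference of effects the lower calls (2) were 3 with the covariate, 1 with no filter, 1 with numbered libraries only and 1 without both libraries. They were 1 to 2 when 1 library was left out. The higher calls (1) were 0 with library size alone, 0 with numbered libraries only, 0 without both libraries and 0 to 1 when 1 library was left out. For most of these settings the share of all genes called is not given, so the counts show how calls moved and are not set against all genes. The causes were not tested. Same-numbered libraries deviated together (r over 0.1) in 7 of 18 pairs. The highest values were those of the replicate 4 libraries (0.24 to 0.35), while most same-numbered pairs of replicates 2 and 3 did not pass. A differently numbered pair, normoxia SLC-0111 replicate 4 and hypoxia DMSO replicate 2, reached 0.22. The numbers thus did not pair all 14 numbered libraries, and the group model held no replicate term. With the number as a replicate block, 12, 14, 18, 19 and 2 genes were lower and 0, 3, 2, 2 and 1 higher. With it SREBF2 in hypoxia with DMSO (adjusted p = 0.0851) and INSIG1 with SLC-0111 in hypoxia (0.0555) were not called. Library size alone shifted the median of all genes by −0.08 to 0.01.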
